A study of Mus musculus with 7 samples.

Results

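The genes described here encode the machinery that docks, primes and fuses hormone granules at the plasma membrane, together with the scaffolds of the active zone, the membrane site where fusion is concentrated. The 45 genes were chosen by name, as the SNARE, synaptotagmin, Rab3 and active zone genes and their direct partners, out of 21899 genes in the files. All 45 were found, and all 45 reached a mean of 10 counts, the minimum for a gene to be compared, which 13627 genes reached. The samples were pancreatic islets of C57BL/6J males of the second generation (F2). Their founder (F0) mothers had been injected late in pregnancy with dihydrotestosterone, an androgen that cannot be converted to oestrogen (prenatal androgen exposure, AE-F2), or with vehicle alone (control-F2). The sons of these mothers received nothing further and were bred with wild-type females, so the F2 males of both groups descend from F0 through the father. Islets were freed with collagenase, purified on a gradient, picked by hand and cultured, so each library mixes β-cells, other endocrine cells and what remained of vessels, nerve, stroma and exocrine tissue, and the sources used here give neither the age of these animals nor how many of them went into a library. The labels name 3 control and 4 hyperandrogenism samples, and the values come from control replicate 1 and hyperandrogenism replicate 4, 1 library in each group, while the other 5 were not analysed here.

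In a β-cell, glucose metabolism closes potassium channels, calcium enters through voltage-gated channels, and calcium triggers the fusion of insulin granules. Fusion is driven by SNARE proteins, which zip together from the granule (v-SNAREs, the Vamp proteins) and from the plasma membrane (t-SNAREs, the syntaxins and Snap25). Sec1/Munc18 (SM) proteins hold syntaxins and guide assembly, tomosyns compete with the v-SNARE, Munc13 and Cadps proteins prime docked granules, Rims, Erc, piccolo and bassoon proteins gather these components near calcium channels, Rab3 and Rab27 GTPases bring granules to the membrane, synaptotagmins and Doc2 proteins sense calcium, complexins clamp the partly zipped complex, and Nsf with Napa (α-SNAP) takes spent complexes apart.

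The study asked how maternal androgen exposure acts on the insulin secretion of male descendants, and the comparison of islet RNA addresses whether these transcripts differ between AE-F2 and control-F2 islets. With 1 library per group there is no replicate check and no test of the conditions. Each ratio is given as log2 of AE-F2 over control-F2, after scaling to library size and the addition of 0.5 counts, and the range in parentheses is a 95% interval on that ratio, made by the Clopper-Pearson method from how the reads of the gene were split between both libraries. It covers counting error only and leaves out the spread between animals. A gene is called higher or lower beyond counting error here where this range leaves out 0, and the levels in the text are counts per 1000000 (CPM) of the scaled library. In bulk islets fewer cells of a type and less RNA per cell cannot be told apart.

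The promoters of the members at the edges of the comparison are shown because the genes they belong to gave the lowest and highest ratios, or were active zone scaffolds lower beyond counting error. These were the scaffold genes Rims3, Pclo, Bsn and Erc2, which have an entry in the table used, the tomosyn gene Stxbp5l, with the lowest ratio, and the GTPase gene Rab3b, with the highest. Each is the run of 250 bases that ends just before the transcription start in the RefSeq annotation of GRCm38.p6, read 5′ to 3′ on the strand of the gene, and the capitals mark CpG dinucleotides, the sites of DNA methylation. The windows are chr4:120854549-120854798 (plus strand) for Rims3, chr5:14514668-14514917 (plus) for Pclo, chr9:108190384-108190633 (minus) for Bsn, chr14:27622157-27622406 (plus) for Erc2, chr16:37384959-37385208 (minus) for Stxbp5l and chr4:108878820-108879069 (plus) for Rab3b.
Rims3: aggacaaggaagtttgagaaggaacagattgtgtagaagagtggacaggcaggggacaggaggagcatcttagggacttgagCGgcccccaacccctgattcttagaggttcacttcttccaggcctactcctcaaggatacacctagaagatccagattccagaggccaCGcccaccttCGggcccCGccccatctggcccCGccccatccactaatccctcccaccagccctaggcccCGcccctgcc
Pclo: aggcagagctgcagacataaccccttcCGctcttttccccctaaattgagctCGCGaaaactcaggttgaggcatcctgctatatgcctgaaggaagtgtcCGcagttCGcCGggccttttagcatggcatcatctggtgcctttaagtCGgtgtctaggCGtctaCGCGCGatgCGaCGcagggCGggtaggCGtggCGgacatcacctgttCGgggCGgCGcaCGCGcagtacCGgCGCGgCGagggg
Bsn: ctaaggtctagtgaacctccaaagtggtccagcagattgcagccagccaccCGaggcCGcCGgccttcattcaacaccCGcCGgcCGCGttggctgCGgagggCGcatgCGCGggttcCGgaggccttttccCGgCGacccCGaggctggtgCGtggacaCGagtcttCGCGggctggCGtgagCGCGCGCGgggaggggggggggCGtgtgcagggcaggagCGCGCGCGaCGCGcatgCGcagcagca
Erc2: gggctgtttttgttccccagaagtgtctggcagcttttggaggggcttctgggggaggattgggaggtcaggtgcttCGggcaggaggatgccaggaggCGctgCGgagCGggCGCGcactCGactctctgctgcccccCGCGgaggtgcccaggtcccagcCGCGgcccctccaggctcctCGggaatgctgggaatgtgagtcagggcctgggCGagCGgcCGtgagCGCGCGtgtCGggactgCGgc
Stxbp5l: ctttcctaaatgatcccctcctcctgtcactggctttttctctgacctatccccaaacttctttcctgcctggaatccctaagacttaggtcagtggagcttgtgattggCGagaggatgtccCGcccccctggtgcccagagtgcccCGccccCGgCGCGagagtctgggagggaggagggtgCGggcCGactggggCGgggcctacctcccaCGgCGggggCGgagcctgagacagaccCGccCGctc
Rab3b: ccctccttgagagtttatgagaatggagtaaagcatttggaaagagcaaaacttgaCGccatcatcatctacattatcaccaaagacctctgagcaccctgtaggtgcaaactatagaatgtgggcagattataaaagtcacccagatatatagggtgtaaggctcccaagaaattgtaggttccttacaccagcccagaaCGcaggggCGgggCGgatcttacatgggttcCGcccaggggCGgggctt

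The windows of Bsn (32 CpG), Pclo (25) and Erc2 (20) were rich in CpG, Stxbp5l held 14, and Rims3 and Rab3b held 6 each. So the members that were lower included both kinds. Of the 45 genes, 36 had an entry in the RefSeq table, with 41 windows between them. Their median was 16 CpG, against 6 over all 32851 windows in the table, and 56.1% of the members' windows held at least 15, against 27.3% of all. The table covers 27025 genes, whereas 13627 reached the minimum in these islets. The members were thus not set against windows of expressed genes alone, here or for the elements below. Among the active zone scaffolds, the 6 windows had a median of 22.5 CpG. The GC box, a common promoter element (GGGCGG on either strand), was found in 61% of the members' windows and 32.7% of all. It occurred 5 times in the window of Stxbp5l, 4 times in that of Rab3b, 3 times in that of Rims3 and 2 times in that of Pclo, and not in those of Bsn and Erc2. The cAMP response element (TGACGTCA on either strand) was in 1 member window, that of Stxbp3 (2.44%, against 1.55% of all), and the left arm of the RE1 element, which is bound by the repressor REST (TTCAGCACC on either strand), was in 0 of them (0.301% of all). A match to these letters is a description of sequence, and the methylation of these windows was not measured in the files used here.

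Across the 45 genes the 2 libraries were close. The median log2 ratio was -0.04, against -0.0014 over all 13627 genes, and the members ran from -0.53 (Stxbp5l) to 0.26 (Rab3b). No member was past 2-fold in either direction, where 3.82% of all genes were (3.16% higher and 0.66% lower), and none was past 1.5-fold, where 8.2% of all genes were (6% higher and 2.2% lower). Of the 45, 1 gene, Stxbp5l, was lower by more than 20%, as were 6.92% of all genes, and none was higher by more than 25%, as were 11.3% of all genes, so that 18.2% were past this mark in either direction. By sign, 14 members had higher and 31 lower values after exposure, so that 68.9% were lower against 50.3% of all genes. Counting error was exceeded by 5 members upward (13.2% of all genes) and by 11 members downward (13.7% of all genes), or 16 in either direction (26.9% of all genes). Most members are well expressed, which narrows the counting range, and where the mean reached 100 counts 69% of 42 members were lower, against 53.8% of 10540 genes, with 26.2% of the members and 16.4% of the genes lower beyond counting error. Where the mean reached 1000 counts, 32% of 25 members and 25.5% of 3471 genes were lower beyond it. Together the members took 0.661% of the control-F2 counts (Wilson 95% interval 0.657 to 0.665) and 0.644% of the AE-F2 counts (0.640 to 0.647). The total counts were 16285888 and 21278513.

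**Figure D1:**
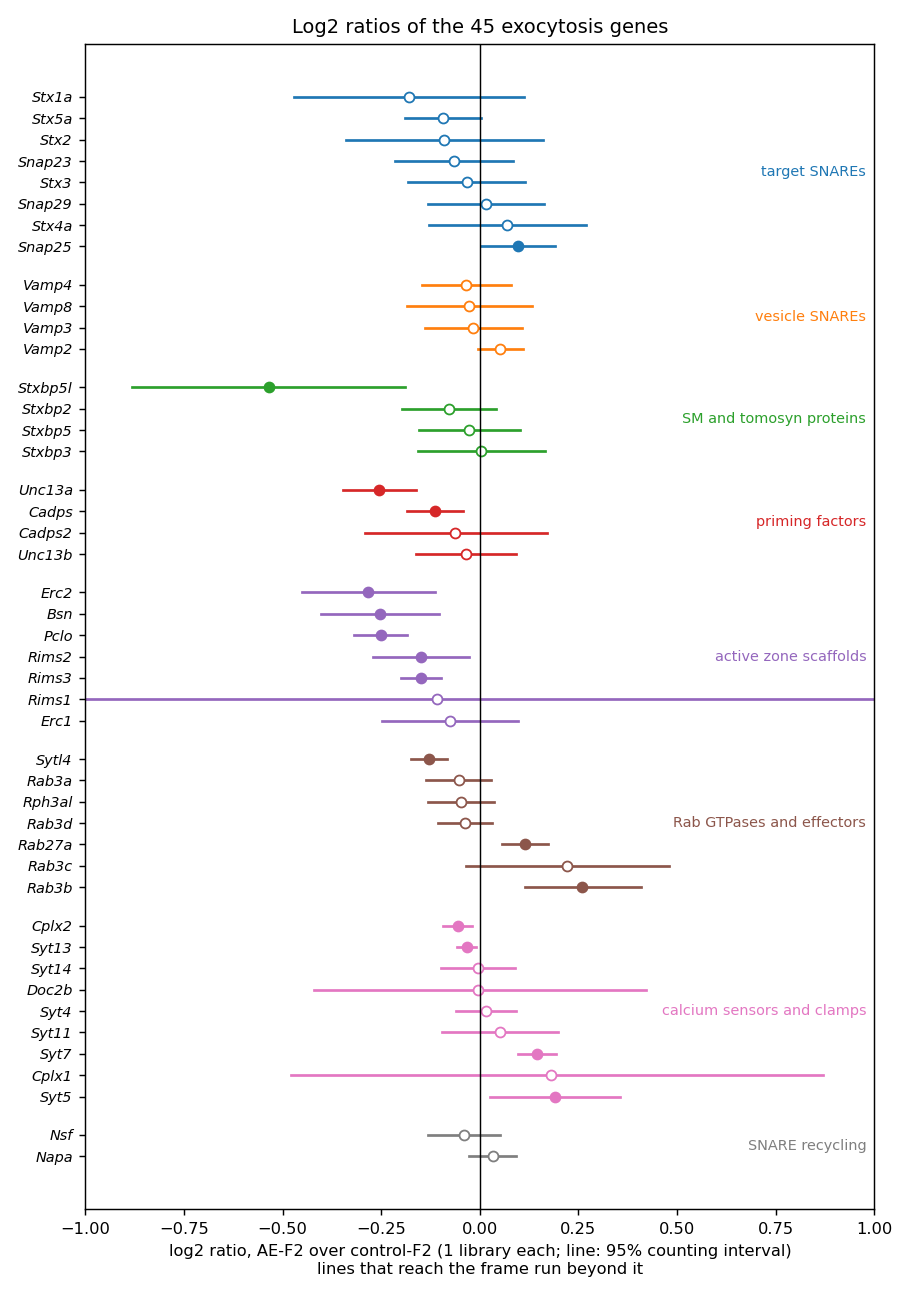
Log2 ratio (AE-F2 over control-F2) for each of the 45 genes, ordered within 8 role groups (1 library each). Points are ratios, lines the 95% counting interval, and filled points mark the 16 intervals that leave out 0. All 7 active zone scaffolds and all 4 priming factors sit left of 0, and Rab3b, Syt5, Syt7, Rab27a and Snap25 are the filled points on the right.

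The clearest group was that of the active zone scaffolds, the large multidomain proteins that tether granules and gather calcium channels. All 7 genes had a lower value in the AE-F2 library, with a median log2 ratio of -0.15, and 5 of the 7 were lower beyond counting error. Of all genes, 50.3% were lower and 13.7% lower beyond counting error. These shares were 57.2% and 18.7% in transcripts from 5000 to 8000 bases, and 58% and 23% in those of 8000 bases or more. With the length and GC trends removed, Bsn and Rims2 were within counting error, and 3 of the 7 remained beyond it. Summed over the group, the control-F2 library held 11951 counts and the AE-F2 library 13697, from a library that was 1.31-fold deeper, and the log2 ratio of the sum was -0.19 (-0.22 to -0.15). Erc2 (ENSMUSG00000040640), which encodes the CAST protein that binds Rims and bassoon, had 564 counts (34.6 CPM) in the control-F2 and 605 counts (28.4 CPM) in the AE-F2 library, a log2 ratio of -0.28 (-0.45 to -0.11). Bsn (ENSMUSG00000032589), encoding bassoon, had 704 counts (43.2 CPM) and 771 counts (36.3 CPM), a log2 ratio of -0.25 (-0.40 to -0.10). For Pclo (ENSMUSG00000061601), which encodes piccolo, a calcium-binding relative of bassoon known to take part in cAMP-potentiated insulin secretion, the counts were 3451 and 3782 and the log2 ratio was -0.25 (-0.32 to -0.18). There were 4.90 times as many Pclo as Bsn counts in the control-F2 library and 4.91 times as many in the AE-F2 library, a log2 difference of 0.00098 (-0.16 to 0.16), which was -0.16 once the trends with transcript length and GC content described further on had been removed.

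The Rims proteins bind Rab3 and Munc13 at the granule docking site. Rims3 (ENSMUSG00000032890), which encodes a short form without the Rab3-binding end, was the most abundant scaffold transcript, with 5710 counts (350 CPM) in the control-F2 and 6718 counts (316 CPM) in the AE-F2 library, a log2 ratio of -0.15 (-0.20 to -0.10). Rims2, which encodes the long Rim form known from β-cells, had 1011 counts (62.0 CPM) and 1189 counts (55.9 CPM), a log2 ratio of -0.15 (-0.27 to -0.03). The balance of the 3 Rims genes was close to the same in both libraries. Per length of transcript, Rims3 held 80.5% of the Rims family in both libraries and Rims2 held 19.3% in both, while Rims1, the main Rim of brain synapses, had 9 and 11 counts, a log2 ratio of -0.11 (-1.50 to 1.36), so that no difference in either direction could be detected for it at this depth. Erc1, the more widely expressed relative of Erc2, had 502 counts (30.8 CPM) and 621 counts (29.2 CPM), and its log2 ratio of -0.08 (-0.25 to 0.10) was within counting error.

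All 4 priming factors also had lower values in the AE-F2 library, with a median log2 ratio of -0.09, 2 of them beyond counting error (50.3% of all genes were lower, and 13.7% beyond counting error), and a log2 ratio of the summed counts of -0.14 (-0.19 to -0.09). With the length and GC trends removed the median was -0.04, and Unc13b was at 0.06. Unc13a (ENSMUSG00000034799), encoding Munc13-1, which opens syntaxin for SNARE assembly, had 1801 counts (110 CPM) in the control-F2 and 1969 counts (92.6 CPM) in the AE-F2 library, a log2 ratio of -0.25 (-0.35 to -0.16). With the trends removed Unc13a was at -0.14 (-0.24 to -0.05). Its counts were not whole numbers as deposited, so part of them may rest on reads shared between genes. Its relative Unc13b (Munc13-2) had 900 counts (55.2 CPM) and 1146 counts (53.9 CPM), a log2 ratio of -0.04 (-0.16 to 0.09). The ratio of Unc13a to Unc13b counts was 2.0 in the control-F2 and 1.72 in the AE-F2 library, a log2 difference of -0.22 (-0.38 to -0.06), which no scaling between the libraries can move. Cadps, encoding the priming factor CAPS1 of dense-core granules, had 2941 counts (180 CPM) and 3546 counts (167 CPM), a log2 ratio of -0.11 (-0.18 to -0.04), or -0.07 with the trends removed, with a range that ended just below 0. Cadps2, at 280 and 350 counts, had a log2 ratio of -0.06 (-0.29 to 0.17), which was within counting error.

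Markers of other cell types also differed between the libraries. Of 8 neuron genes 7 had higher values in the AE-F2 library (50.3% of all genes were lower). Beyond counting error were 3 of them (13.2% of all genes were above it), and the median log2 ratio of the list was 0.47. The list took 0.0118% of the control-F2 and 0.0126% of the AE-F2 counts, a log2 ratio of the sum of 0.09 (0.01 to 0.18), and none of its genes was at 0. Most of that sum came from Elavl4 (676 and 892 counts), Tubb3 (647 and 910) and Snap91 (431 and 508), all within counting error. The β-cell markers were mixed, with 6 of 8 lower and 2 higher and a median of -0.10. The lowest were the glucose transporter gene Slc2a2 (15368 and 16495 counts, log2 ratio -0.28) and Nkx6-1 (-0.26). The higher ones were Iapp (295337 and 450833 counts, 0.23) and the insulin gene Ins1 (0.07). Their summed share was 19.8% in both libraries, which the insulin genes fill for the most part. The α-cell markers were all higher, 6 of 6, with a summed share of 1.76% and 2.37% and a log2 ratio of 0.46 for Gcg, the glucagon gene. The part of these marker differences in the values of the exocytosis genes was not tested.

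**Figure D2:**
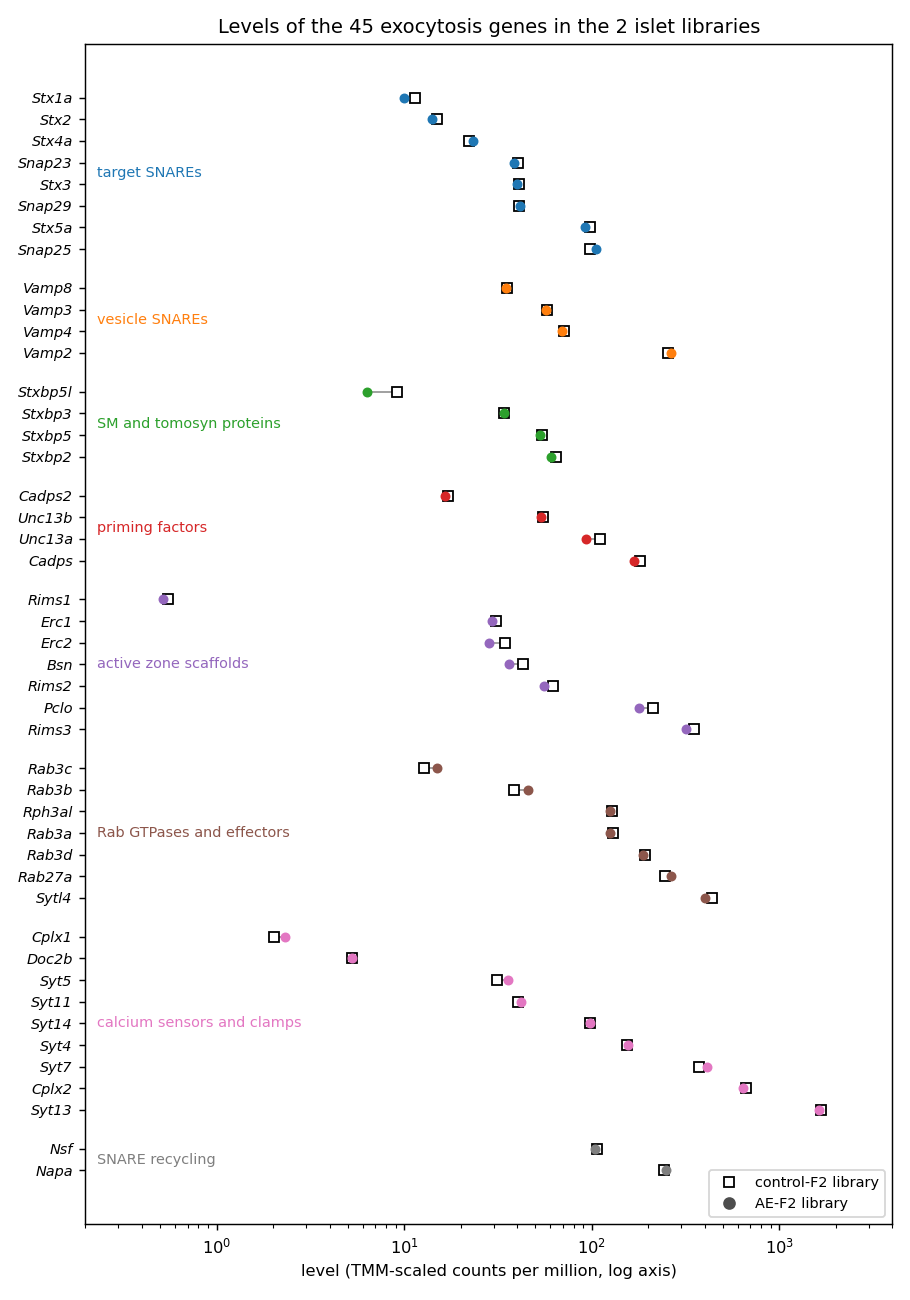
Level of each of the 45 genes in the control-F2 library (open squares) and the AE-F2 library (filled circles), in TMM-scaled CPM on a log axis, by role group. The pairs of symbols nearly coincide for most genes, over a range from about 0.5 CPM (Rims1) to 1657 CPM (Syt13), and the widest gap is that of Stxbp5l.

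The target SNAREs, the plasma membrane side of the fusion complex, had 3 of 8 genes higher and 5 lower (50.3% of all genes were lower). Their median log2 ratio was -0.05, and the log2 ratio of the sum was -0.01 (-0.06 to 0.04). With the length and GC trends removed the median was -0.07, Snap25 alone was above 0, and Snap23 (-0.16, -0.31 to -0.0064) and Stx5a (-0.12, -0.21 to -0.02) were lower beyond counting error. Snap25, the t-SNARE of regulated secretion, had 1601 counts (98.2 CPM) in the control-F2 and 2232 counts (105 CPM) in the AE-F2 library, a log2 ratio of 0.10 (0.0026 to 0.19). Without this removal it was the only one of the 8 beyond counting error, where 26.9% of all genes were. The margin was close to 0, and was gone with the trends removed (0.03, -0.07 to 0.12) and in counts thinned to equal depth. The lowest ratio in the group was that of Stx1a, the syntaxin that pairs with Snap25 in insulin granule fusion, with 185 counts (11.3 CPM) and 213 counts (10.02 CPM), a log2 ratio of -0.18 (-0.47 to 0.11), which was within counting error and was -0.08 with the trends removed. Stx5a, a syntaxin of the Golgi, had the highest level per length of the 5 syntaxins among the members, with 1596 and 1952 counts and a log2 ratio of -0.09 (-0.19 to 0.0033). The remaining target SNAREs, Snap23, Snap29, Stx2, Stx3 and Stx4a, had between 243 and 668 counts in the control-F2 library and log2 ratios from -0.09 to 0.07, all within counting error. Stx4a encodes a plasma membrane syntaxin that also takes part in insulin release. Its share of the 5 syntaxins per length was 18.3% in the control-F2 and 20.0% in the AE-F2 library, and that of Stx1a was 6.28% and 5.76%.

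None of the 4 vesicle SNAREs was beyond counting error, where 26.9% of all genes were, and their median log2 ratio was -0.02. Vamp2, however, came to lie above counting error under upper quartile scaling (0.0088 to 0.12) and without the 10 most abundant genes (0.01 to 0.13). Vamp2 (synaptobrevin), the v-SNARE of insulin granules, had 4171 counts (256 CPM) in the control-F2 and 5642 counts (265 CPM) in the AE-F2 library, a log2 ratio of 0.05 (-0.0057 to 0.11), and was the only one of the group that was higher. Vamp4, found on the trans-Golgi and on immature granules, had 1155 counts (70.9 CPM) and 1471 counts (69.2 CPM), a log2 ratio of -0.03 (-0.15 to 0.08). Vamp3 (cellubrevin) and Vamp8, which serve recycling and newcomer granules, had log2 ratios of -0.02 and -0.03. Per length, Vamp2 held 62.4% of the 4 genes in the control-F2 and 63.6% in the AE-F2 library.

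Among the SM and tomosyn proteins, the tomosyn-2 gene Stxbp5l (ENSMUSG00000022829) gave the lowest ratio of all 45 members. Tomosyns hold syntaxin and Snap25 in a complex that no v-SNARE can enter, and so restrain fusion. Stxbp5l had 150 counts (9.20 CPM) in the control-F2 and 135 counts (6.35 CPM) in the AE-F2 library, a log2 ratio of -0.53 (-0.88 to -0.19). Of the 10540 genes whose mean reached 100 counts, 0.825% had a ratio as low or lower. Its relative Stxbp5 (tomosyn-1) had 883 counts (54.2 CPM) and 1131 counts (53.2 CPM), a log2 ratio of -0.03 (-0.15 to 0.10). Relative to Stxbp5l, Stxbp5 went from 5.89 to 8.38 counts for each count of its partner, a log2 difference of 0.51 (0.14 to 0.88). The SM genes Stxbp2 (1047 and 1293 counts) and Stxbp3 (555 counts, 34.0 CPM, and 726 counts, 34.1 CPM) had log2 ratios of -0.08 (-0.20 to 0.04) and 0.0037 (-0.16 to 0.17), both within counting error.

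The Rab GTPases and their effectors went both ways, with 3 of 7 higher and 4 lower (50.3% of all genes were lower) and a median log2 ratio of -0.04. Rab3b (ENSMUSG00000003411) gave the highest ratio of the 45 members, with 624 counts (38.3 CPM) in the control-F2 and 975 counts (45.9 CPM) in the AE-F2 library, a log2 ratio of 0.26 (0.11 to 0.41). In the same 10540 genes, 5.81% had a ratio as high or higher. Rab27a (ENSMUSG00000032202), the GTPase on insulin granules that recruits granuphilin, was also higher, with 3984 counts (244 CPM) and 5627 counts (265 CPM), a log2 ratio of 0.11 (0.06 to 0.17). Its effector granuphilin, encoded by Sytl4, which docks granules by binding syntaxin, was lower. Sytl4 had 7152 counts (439 CPM) and 8530 counts (401 CPM), a log2 ratio of -0.13 (-0.17 to -0.08). The GTPase and its docking partner thus lay on opposite sides of 0, both beyond counting error.

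Of the other Rab3 genes, Rab3a, the highest of the 4 per length, had 2119 counts (130 CPM) in the control-F2 and 2663 counts (125 CPM) in the AE-F2 library, a log2 ratio of -0.05 (-0.14 to 0.03), which with the length and GC trends removed was -0.14 (-0.22 to -0.05), beyond counting error. Set against Rab27a, Rab3a was lower by a log2 difference of -0.17 (-0.27 to -0.07). Rab3d (3125 and 3970 counts) was within counting error at -0.04, and Rab3c (209 and 318 counts, not whole as deposited) had a log2 ratio of 0.22 (-0.03 to 0.48), also within it. Per length, Rab3b made up 7.89% of the 4 Rab3 genes in the control-F2 and 9.57% in the AE-F2 library, and Rab3a 57.3% and 55.9%. Rph3al, encoding the Rab3 and Rab27 effector Noc2 of endocrine granules, had 2097 counts (129 CPM) and 2646 counts (124 CPM), a log2 ratio of -0.05 (-0.13 to 0.04).

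The calcium sensors and clamps held the most abundant members and had a median log2 ratio of 0.02. Of the 9 genes 5 were higher and 4 lower, with 2 beyond counting error in each direction. Over all genes 50.3% were lower, and 13.2% were above and 13.7% below counting error. Syt7 (ENSMUSG00000024743), the high-affinity calcium sensor of insulin and glucagon granules, had 6084 counts (373 CPM) in the control-F2 and 8775 counts (413 CPM) in the AE-F2 library, a log2 ratio of 0.14 (0.10 to 0.19). Syt5, a calcium-binding synaptotagmin, had 510 counts (31.3 CPM) and 759 counts (35.7 CPM), a log2 ratio of 0.19 (0.03 to 0.35), which with the length and GC trends removed was 0.14 (-0.02 to 0.31), within counting error. Syt13, which lacks calcium-binding residues, was the most abundant of the 45 genes by far, with 27009 counts (1657 CPM) and 34419 counts (1619 CPM), and its log2 ratio of -0.03 (-0.06 to -0.01) was beyond counting error at that depth, but came within it under upper quartile scaling and without the 10 most abundant genes. Cplx2, which encodes the complexin of islet cells, was also lower, with 10805 counts (663 CPM) and 13558 counts (638 CPM), a log2 ratio of -0.06 (-0.09 to -0.02), with counts that were not whole as deposited. With the length and GC trends removed its log2 ratio was -0.0057 (-0.04 to 0.03), within counting error.

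The synaptotagmins therefore differed in direction. Syt4, a synaptotagmin that modifies the calcium dependence of granule release in maturing β-cells, had 2508 counts (154 CPM) in the control-F2 and 3308 counts (156 CPM) in the AE-F2 library, a log2 ratio of 0.02 (-0.06 to 0.09). Against Syt7 it was lower by a log2 difference of -0.13 (-0.22 to -0.04), and Syt5 was higher against Syt13 by 0.22 (0.06 to 0.39). Per length, Syt7 went from 9.83% to 10.9% of the 6 synaptotagmin genes, and Syt13 from 76.9% to 75.3%. Syt11 (658 and 889 counts) and Syt14 (1599 and 2079 counts), which do not bind calcium as sensors do, had log2 ratios of 0.05 and -0.0049. Doc2b, a high-affinity calcium sensor that binds Munc13 and SNAREs, had 86 and 112 counts and a log2 ratio of -0.0043 (-0.42 to 0.42), and Cplx1 had 33 and 49 counts and a log2 ratio of 0.18 (-0.48 to 0.87). For these 2 genes the counting ranges were too wide to show a difference of the size seen in Syt7.

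The α-cell markers named above were higher in the same library in which Rab3b, Rab27a, Syt5 and Syt7 were higher, and the immune markers (median log2 ratio 1.96 over 5 genes, 0.0143% and 0.0243% of the counts) and stromal markers (median 1.006 over 6 genes, 0.00691% and 0.0117%) were higher too, with Cd3e of the T cell receptor complex at 0 in the control-F2 library. Among the acinar markers 7 of 8 were lower, with a median of -0.39, and the log2 ratio of the sum was -0.11 (-0.13 to -0.09). Amy2a5, which had the most counts of the 8 in the AE-F2 library, was at 0.62 (7774 and 15634 counts). Their part in the values of the members was not tested.

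The genes for the disassembly of spent SNARE complexes were within counting error. Nsf, the ATPase, had 1745 counts (107 CPM) in the control-F2 and 2213 counts (104 CPM) in the AE-F2 library, a log2 ratio of -0.04 (-0.13 to 0.05), and Napa, its adaptor, had 3939 counts (242 CPM) and 5255 counts (247 CPM), a log2 ratio of 0.03 (-0.03 to 0.09).

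Counts divided by transcript length and scaled to a common total give a level that can be compared between genes. On this scale Syt13 was first in both libraries (818 in the control-F2 and 779 in the AE-F2 library), followed by Cplx2 (250 and 234). In the order of the mean of both libraries, Vamp2 (215 and 218), Sytl4 (217 and 193), Napa, Rab3a, Rab27a, Syt7, Rph3al and Rims3 came next. Several neighbours changed places between the libraries, among them Vamp2 with Sytl4 and Rab3a with Rab27a, and in the AE-F2 library Snap25 stood ahead of Rims3. The transcripts of the core SNAREs of insulin release spanned a wide range, from Vamp2 and Snap25 (86.1 and 89.7) down to Stx1a (9.74 and 8.38). Bsn (5.03 and 4.12), Stxbp5l (3.89 and 2.61), Rab3c, Doc2b, Cplx1 and Rims1 (0.159 and 0.145) closed the list. With all exons of a gene counted in its length, 9 of the first 10 were shared.

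**Figure D3:**
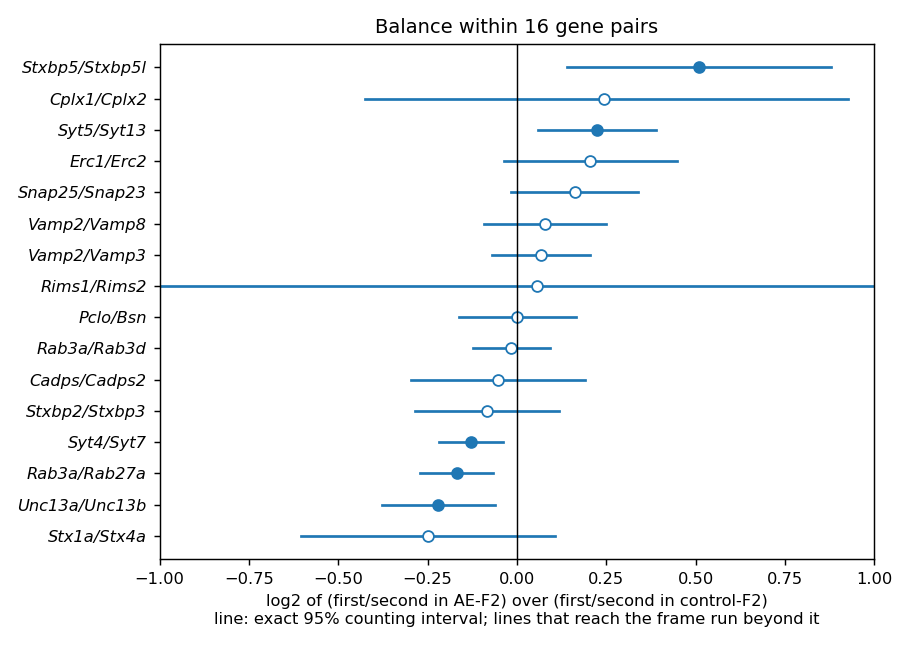
Balance within 16 pairs of related genes, as the log2 difference between the AE-F2 and the control-F2 ratio of the first to the second gene, with exact 95% counting intervals. Filled points mark the 5 intervals that leave out 0, Stxbp5/Stxbp5l and Syt5/Syt13 on the right and Syt4/Syt7, Rab3a/Rab27a and Unc13a/Unc13b on the left.

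Ratios of counts within a library do not depend on the scaling between libraries, and 16 pairs of related or partner genes were compared in this way. For 11 of the pairs the range included equality, and 5 left it out, with Stxbp5/Stxbp5l and Syt5/Syt13 shifted toward the first gene and Unc13a/Unc13b, Rab3a/Rab27a and Syt4/Syt7 toward the second. Snap25/Snap23, the main t-SNARE against its ubiquitous relative, was at 0.16 (-0.02 to 0.34), Stx1a/Stx4a at -0.25 (-0.60 to 0.11), or -0.04 with the length and GC trends removed, and Erc1/Erc2 at 0.21 (-0.04 to 0.45). The other pairs were Vamp2/Vamp3, Vamp2/Vamp8, Stxbp2/Stxbp3, Cadps/Cadps2, Rims1/Rims2, Pclo/Bsn, Rab3a/Rab3d and Cplx1/Cplx2. Their differences ran from -0.08 (Stxbp2/Stxbp3) to 0.24 (Cplx1/Cplx2).

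The scaffold and priming transcripts are among the longest of the members, and the ratio moved with transcript length over all genes. Among all genes the median log2 ratio went from 0.06 in transcripts under 1500 bases to -0.03 in those of 8000 bases or more, and the share lower in the AE-F2 library from 38.5% to 58%. Among the members, 7 of the 8 genes of 8000 bases or more were lower, and 64.7% of the 17 from 1500 to 3000 bases, where 47.1% of all genes in that class were. Across the 45 genes, which come from the same 2 libraries, Spearman's rho between length and log2 ratio was -0.35 (Pearson's r -0.35), against -0.11 (-0.10) across 13609 genes of known length. For GC content rho was -0.09 among the members and -0.17 among all genes.

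**Figure D4:**
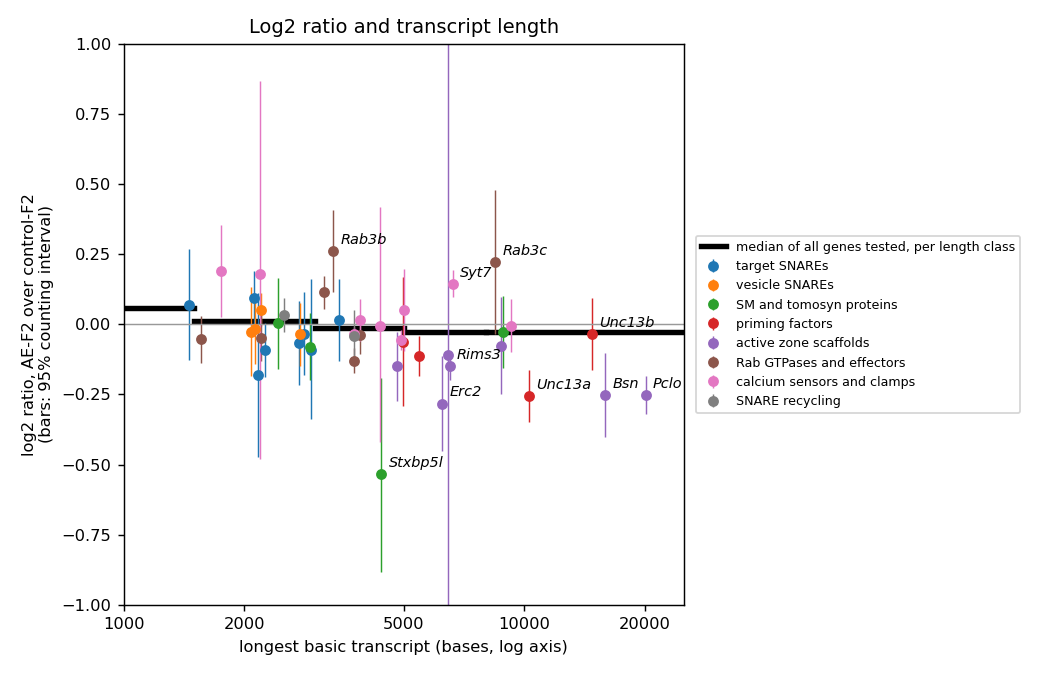
Log2 ratio (AE-F2 over control-F2) of the 45 genes against the length of the longest transcript in bases (log axis), with 95% counting intervals. Black bars give the median of all genes in each length class, from 0.06 in the shortest to -0.03 in the longest, and Pclo, Bsn and Unc13a lie below the bar of their class while Unc13b lies on it.

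The scaffolds were read again after the trends of the ratio with length and GC content over all genes had been removed. Their median log2 ratio then was -0.10 in place of -0.15. Erc2 stayed at -0.28, Pclo was at -0.18 and Rims3 at -0.10, all beyond counting error, whereas Bsn, whose transcript is long and rich in GC, moved to -0.02 (-0.17 to 0.13) and Rims2 to -0.10 (-0.22 to 0.02), both within it. Unc13a was at -0.14 (-0.24 to -0.05). On the other side Syt7 was at 0.17, Rab3b at 0.24 and Rab27a at 0.08, again beyond counting error, while Snap25 (0.03) and Syt5 (0.14) came within it.

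The rest of the pathway was read from a list of 90 other SNARE, tethering and granule genes, of which 89 were in the files and 82 passed the minimum. This list was balanced, with 41 higher and 41 lower, a median log2 ratio of 0.0012, 12 above counting error (13.2% of all genes) and 9 below it (13.7% of all genes), and none past 2-fold (3.82% of all genes). Its genes with the most counts were Syp, encoding synaptophysin of small vesicles (7423 and 10389 counts, log2 ratio 0.10, 0.06 to 0.14), Rimbp2, encoding the Rim-binding protein that links Rims to calcium channels (7065 counts, 433 CPM, and 8019 counts, 377 CPM, log2 ratio -0.20, -0.25 to -0.15), and Rab2a, a GTPase between endoplasmic reticulum and Golgi (4888 and 6932 counts, log2 ratio 0.12, 0.07 to 0.17). Among other active zone and Munc13 genes of the list, Baiap3 (3387 and 3813 counts) was at -0.21 (-0.28 to -0.15). Ppfia1 at -0.06 and Ppfia3 at -0.07 were within counting error. Those with few counts went both ways. Ppfia2 (59 and 87 counts) at 0.17, Ppfia4 (36 and 40) at -0.23 and Rims4 (7 and 13) at 0.46 were within counting error. Unc13d, on 14 and 36 counts, was at 0.95 (0.05 to 1.98). Where the mean reached 100 counts, the lowest ratios of the list were in effectors of Rab27, Exph5 (739 and 739 counts, log2 ratio -0.38, -0.53 to -0.23), Sytl5 (260 and 283, -0.26, -0.51 to -0.01) and Sytl1 (416 and 463, -0.23, -0.42 to -0.03). The highest ratio was also in a Rab27 effector, Myrip (122 and 204 counts, log2 ratio 0.36, 0.03 to 0.69), followed by Bnip1, a SNARE of the endoplasmic reticulum (113 and 176, 0.25, -0.09 to 0.61), and Syt3 (193 and 299, 0.25, -0.02 to 0.52), both within counting error.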

How the data were processed

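Islet RNA-seq of 1 control-F2 and 1 AE-F2 library was used. The study's methods give oligo(dT) selection, Illumina sequencing and HISAT2, and the submitters' processing notes name Bowtie2, RSEM and DESeq2. The genome build is not given in the sources used here. The authors deposited expected counts per gene (8.56% and 9.28% not whole), unscaled. Here they were rounded, scaled with edgeR 4.0.16 (TMM, R 4.3.3) and compared as log2 ratios with a pseudocount of 0.5 counts and a minimum mean of 10 counts. Clopper-Pearson intervals (scipy 1.17.1, 95%) cover counting error only. They treat reads as independent molecules, which reads are not, so they may be too narrow. No p-value was computed. Symbols, lengths and GC content came from GENCODE M21, trends from mgcv 1.9.3, and promoters from RefSeq. The procedure was tested on simulated counts. The members and lists were chosen with earlier results of these data known, and 1 gene of the wider list was not analysed here. Full values are given for the extremes of each role group, the 10 members of highest level per length, those past 20% lower or 25% higher beyond counting error, both genes of each shifted pair and, in the wider list, the 3 most abundant and 3 extremes in each direction. Other genes with values were chosen after these were seen. The value of 1 marker gene is not reported here.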

Additional observations from a re-analysis of the deposited data

How the results depend on the processing

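Under 10 alternatives (DESeq2 1.42.0 size factors, total counts, upper quartile, totals without the 10 most abundant genes, TMM without mitochondrial genes and insulin, minimum means of 50 counts and of 1 count, a pseudocount of 5 counts, removal of length and GC trends, and thinning of the AE-F2 counts), the median log2 ratio of the members lay between -0.04 and -0.02 and that of the scaffolds between -0.20 and -0.10. The scalings moved the median of all genes by at most 0.02. With the trends removed, 3 members in place of 5 were above counting error. At the lowest of the fold thresholds tried (25% higher or 20% lower), 1 member was past it, in place of 0 at 2-fold. Of the 16 members beyond counting error, 10 kept this under the other scalings, the removal of trends and the thinning, the alternatives that enter the interval, with Rab3b, Rab27a and Syt7 above and Stxbp5l, Unc13a, Rims3, Pclo, Sytl4, Cadps and Erc2 below. Syt13 came within counting error under the upper quartile and without the 10 most abundant genes, Snap25 in the thinned counts, and Snap25, Rims2, Bsn, Syt5 and Cplx2 with the trends removed. Members that came to lie beyond counting error were Vamp2 (above) under the upper quartile and without the 10 most abundant genes, Snap23, Stx5a and Rab3a (below) with the trends removed, and Stx5a and Stxbp2 (below) in the thinned counts. No member's ratio beyond counting error changed sign. Rims1 and Cplx1 rest on too few counts to show a difference of the size seen here. Leaving out a replicate was not possible with 1 library per group. No paired analysis was possible because the libraries analysed here, control replicate 1 and AE-F2 replicate 4, share no replicate number.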
